A study of Mus musculus with 2 samples.

Results

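The genes described here are mouse microRNA genes with a late number in their symbol or a symbol not starting with Mir (unnamed here). All had reads in both small RNA libraries of a calf muscle. A member is a microRNA gene of the GENCODE vM21 annotation whose symbol is Mir followed by a number of 1000 or more, or does not start with Mir, with at least 1 read on its own strand in each library. Mir3107 and the genes of an interval of chromosome 12 that holds the microRNA clusters of the imprinted Dlk1-Dio3 region were left out by that rule. Mir1247, in Dio3os beside Dio3, lies outside the interval and was kept. Of the 2202 microRNA genes in the deposited tables, 152 were members, 136 with a Mir symbol and 16 without. The members were thus chosen by their own read counts and by their names, so detection and abundance are given as a description with no test.

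The tissue was gastrocnemius, the large calf muscle, of male B6CASTF1/J mice at 14 days of age, obtained from The Jackson Laboratory. B6CASTF1/J animals are first-generation hybrids between the C57BL/6 and CAST/EiJ strains. The labels give 1 group of 2 biological replicates, with no treatment and no second tissue, age or genotype. Their text mentions 3 males and the same donor identifier for both libraries without saying whether a library is a pool, so the spread between the replicates may be technical. Values are given for each library or as a mean ± SD (n = 2).

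MicroRNAs are cut from hairpins in longer transcripts. Drosha with its partner Dgcr8 frees the hairpin, Dicer cuts it to a duplex, and 1 strand of the duplex guides Argonaute to messenger RNAs, mainly through the seed, bases 2 to 8 of the mature strand. Names are numbered roughly in the order of registration, so high numbers mostly belong to sequences found by deep sequencing. Some of these arise by other routes. A mirtron is a short intron that folds into a hairpin once spliced out and so needs no cut by Drosha. Small nucleolar RNAs (snoRNAs), which guide modification of ribosomal RNA, their Cajal body relatives (scaRNAs) and tRNAs can also be processed to pieces of microRNA size.

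RefSeq (GRCm38.p6) gave a mature sequence for 130 members, 217 sequences in all with 212 distinct seeds. Some members without a Mir symbol do have a microRNA name there, such as miR-935 for Gm23450 and miR-9769 for Gm38670. Mir5099, the second most abundant member, had no matched sequence, and those of Mir6236 and Mir7689 are not printed. A selection from other abundant members, and from members on which a result below turns, is printed 5′ to 3′ with the seed in capitals.
miR-1839-5p: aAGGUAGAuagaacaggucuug
miR-1981-5p: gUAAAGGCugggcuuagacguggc
miR-3102-5p: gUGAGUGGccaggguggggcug
miR-702-5p: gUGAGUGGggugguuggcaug
miR-1983: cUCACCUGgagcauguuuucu
miR-412-3p: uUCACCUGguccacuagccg
miR-1306-5p: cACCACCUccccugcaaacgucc
miR-1306-3p: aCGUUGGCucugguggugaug
miR-1843a-5p: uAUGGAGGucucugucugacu
miR-1843b-5p: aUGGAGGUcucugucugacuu
miR-1249-3p: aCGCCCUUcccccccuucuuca
miR-3074-5p: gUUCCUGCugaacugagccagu
miR-3535: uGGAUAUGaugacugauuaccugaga
Few of these seeds were shared with lower-numbered microRNAs. Of the 217 sequences, 7, each from a different member, had the seed of a differently named lower-numbered mature microRNA. miR-3102-5p has the seed of miR-702-5p, and miR-1983 that of miR-412-3p. The other 5 pairs were miR-6240 with miR-330-3p, miR-3475-5p with miR-96-3p, miR-7069-3p with miR-18a-3p, miR-5129-3p with miR-455-5p, and miR-1947-3p with miR-674-5p. A shared seed is a description of letters, and the counts, which are per hairpin gene, do not say which arm was read.

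Together the members held a very small share of the microRNA reads. They had 4820 of 2743657 assigned counts in replicate 1, which is 0.176% (95% Wilson interval 0.171 to 0.181), and 4264 of 2211254 in replicate 2, which is 0.193% (0.187 to 0.199). The mean was 0.184% ± 0.0121. Intervals cover counting error only. Multi-mapping reads made up 44.0% of replicate 1 and 52.1% of replicate 2. The deposited tables put them in no gene, so loci with a near-identical copy are under-counted by an unknown amount. The libraries carried the microRNAs of muscle, with 9 of 9 listed muscle genes counted in both and summing to 69535 and 69214 CPM, counts scaled to 1e+06 assigned counts. Endothelial microRNAs summed to 98088 and 80434 CPM and smooth muscle ones to 36704 and 34920. The muscle list holds several genes in paired copies, and reads that fit both copies of a pair are in neither count. These sums thus do not rank the cell types. Of 5 leukocyte genes 4 had a count in both (977 and 1048 CPM summed), both red cell genes did (384 and 571), and of 7 neuronal genes 5 were at 0 (14.2 and 48.4). Reads that fit several loci are in no count, so the neuronal zeros do not show that these microRNAs were absent. The 1 liver gene listed was counted in both libraries too (108 and 132). For the same reason its level is not ranked against the neuronal sums. Where its reads came from was not tested. In whole tissue, fewer cells of a type and less RNA per cell cannot be told apart. Nor can either be told from a loss of reads that fit several loci.

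Abundance was steeply ranked. The median member stood at 1.56 CPM (quartiles 0.861 and 4.11), and the highest, Mir1839, at 571 CPM. Only 20 members reached 10 CPM in both libraries, and 3 reached 100 CPM. By contrast 189 of the 261 detected lower-numbered genes (72.4%), against 13.2% of members, reached 10 CPM in both, and their median was 100.8 CPM. Of the members, 3 lay above that median. The 5 most abundant members held 55.1% of all member counts in replicate 1 and 54.9% in replicate 2, and the 20 most abundant held 84.0% and 84.8%.

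**Figure D1:**
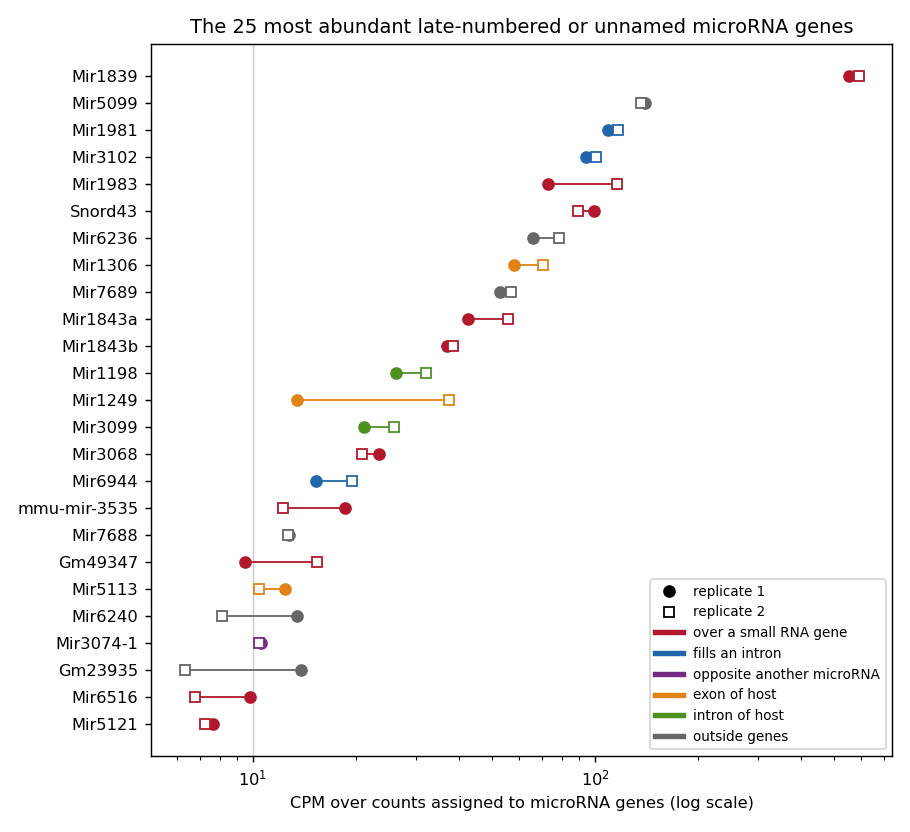
Level of the 25 most abundant members in replicate 1 (filled circle) and replicate 2 (open square), in CPM on a log axis, coloured by position in the annotation. Mir1839 stands at 553 and 589.7 CPM, and the widest gap between the libraries is that of Mir1249, at 13.5 and 37.5 CPM.

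Position in the annotation divided the members into 6 classes, taken in order so that each gene is counted once. The classes were overlap with a small RNA gene, a hairpin that fills an intron, overlap with a microRNA gene on the opposite strand, an exon, an intron, and outside genes on the same strand. The 16 members that overlap a snoRNA, scaRNA or tRNA gene held more counts than all other classes together. They had 2458 counts in replicate 1 and 2146 in replicate 2, a mean of 50.7% ± 0.472 of all member counts. The 64 members in other introns and the 45 in exons, the most numerous classes, held 8.49% ± 0.128 and 10.3% ± 1.33. The 10 members that fill an intron held 12.8% ± 0.124, the 15 outside genes 17.2% ± 1.05, and the pair opposite another microRNA 0.625% ± 0.0549. The order of the classes by counts was the same in both libraries.

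**Figure D2:**
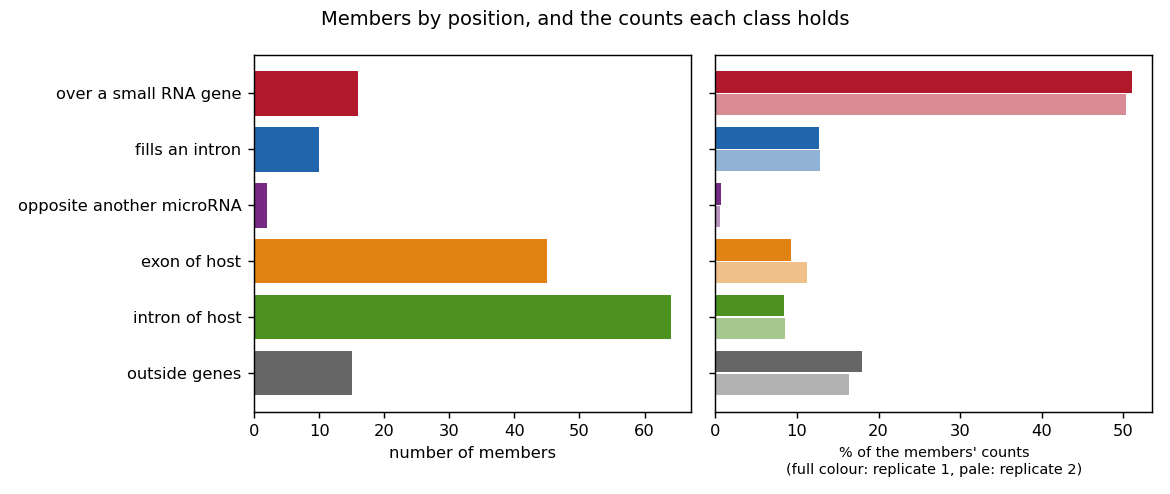
Number of members in each position class (left) and the percentage of all member counts that the class held in each library (right). The 16 members over a small RNA gene held 51.0% of the counts in replicate 1 and 50.3% in replicate 2.

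The first member of the small RNA class was Mir1839, which alone held 31.5% of all member counts in replicate 1 and 30.6% in replicate 2. Its 73-base hairpin lies on mm10 at chr7:81529916-81529988, plus strand, within the long noncoding RNA gene 2900076A07Rik. The annotation gives the same symbol to a scaRNA gene there, at chr7:81529855-81529981, which covers 66 bases of the hairpin and the whole of miR-1839-5p. Mir1839 had 1517 counts in replicate 1 and 1304 in replicate 2, 571 CPM ± 26.0. The libraries lay close together, with a log2 ratio of replicate 2 to replicate 1 of 0.08.

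Mir1983 and Snord43 came next in this class. Mir1983, at chr13:21896918-21897049, minus strand, spans 94 bases of the RefSeq isoleucine tRNA gene n-TItat14, whose strand the RefSeq table does not state. It had 200 counts in replicate 1 and 257 in replicate 2, 94.6 CPM ± 30.6, and was the higher in replicate 2. Its mature sequence reaches past the end of the tRNA gene, with 13 of its 21 bases inside it. Snord43, a microRNA gene in the annotation despite its snoRNA symbol, lies at chr15:80082847-80082954 in an intron of Rpl3, which encodes a protein of the large ribosomal subunit. It had 272 counts in replicate 1 and 197 in replicate 2, 94.1 CPM ± 7.11.

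Mir1843a and Mir1843b form a pair of near copies. Mir1843a lies at chr12:80391613-80391677 inside Scarna3b, in an intron of Dcaf5. It had 117 and 123 counts, 49.1 CPM ± 9.18. Mir1843b lies at chr1:159340358-159340423 over Scarna3a, in an intron of Cop1, a ubiquitin ligase gene. It had 101 and 85 counts, 37.6 CPM ± 1.15. The 5p sequences printed above are the same letters shifted by 1 base, so their seeds differ. The hairpins share a stretch of at least 20 bases, and reads that fit both loci are in neither count.

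The remaining 11 members of the class were lower. Mir3068, over a snoRNA gene in an intron of Alkbh1, had 64 and 46 counts. The gene mmu-mir-3535, over the snoRNA gene Gm24148 in Ncl, which encodes the nucleolar protein nucleolin, had 51 and 27. Gm49347, over Snora74a, had 26 and 34 counts, and Mir1949, over a snoRNA gene in the same host, had 15 and 18. Mir5121, over Snord33 in the ribosomal protein gene Rpl13a, had 21 and 16 counts. Gm49346, over Snora81 in Eif4a2, which encodes an RNA helicase of translation initiation, had 4 and 7. Mir6516 and Mir3069 lie in Snhg20 and Snhg10, long RNAs that carry small RNAs in their introns, and had 27 and 15, and 9 and 3 counts. Mir1291, over Snora34 in an intron of Kansl2, had 14 and 6, and Gm47277, over the snoRNA gene Gm24698 in an intron of Champ1, had 3 and 1. The gene n-TSaga9, over a tRNA gene outside other genes, had 17 and 7.

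In this class the mature sequence lay within the small RNA gene in nearly every case. RefSeq mature sequences were matched for 10 of the 16 members, and 14 of their 15 sequences were inside the small RNA gene to the last base. The exception was miR-1983. By the median, their hairpins folded less stably per base than those of the other classes. The minimum free energy was −0.322 kcal/mol per base, against −0.457 for members that fill an intron, −0.465 in exons and −0.416 in introns. A count does not tell a microRNA from another piece of the small RNA that covers the same bases, and the source of these reads was not tested. Among the 261 lower-numbered genes detected, 2 overlapped a small RNA gene, Mir664 and Mir677.

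**Figure D3:**
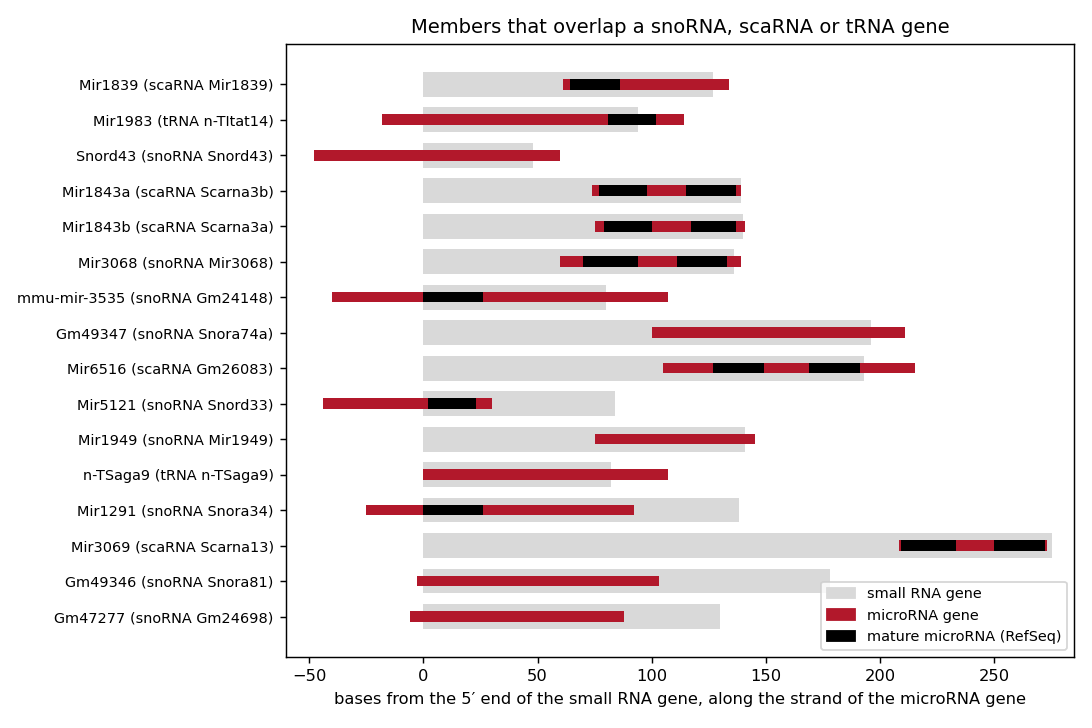
The 16 members that overlap a small RNA gene, from the most abundant at the top, drawn in bases from the 5′ end of that gene (grey) along the strand of the member (red), with RefSeq mature sequences in black. The hairpin lies over the 3′ part of the small RNA gene in 8, over the 5′ part in 4 (Mir5121, Mir1291, Gm49346 and Gm47277) and over the whole of it in 4.

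The 10 members that fill an intron matched it exactly at both ends. Each began with the GT of the 5′ splice site and ended with the AG of the 3′ splice site, shown in capitals for the 3 most abundant, from the GENCODE transcript sequences.
Mir1981: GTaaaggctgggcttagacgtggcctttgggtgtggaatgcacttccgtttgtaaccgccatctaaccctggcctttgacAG
Mir3102: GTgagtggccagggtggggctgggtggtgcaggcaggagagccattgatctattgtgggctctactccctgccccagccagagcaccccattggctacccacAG
Mir6944: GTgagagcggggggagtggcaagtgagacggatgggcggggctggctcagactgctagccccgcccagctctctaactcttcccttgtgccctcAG
Mir1981 is an 82-base intron of Marc2, which encodes a mitochondrial reductase, at chr1:184822407-184822488, minus strand. It had 299 and 258 counts, 113 CPM ± 5.44. Mir3102 is a 104-base intron of Arhgef17, at chr7:100882306-100882409, minus strand. It had 258 and 222 counts, 97.2 CPM ± 4.50. Mir6944 is a 96-base intron of Dbn1, the gene of the actin-binding protein drebrin, at chr13:55477681-55477776, minus strand. It had 42 and 43 counts, 17.4 CPM ± 2.93. The 5p sequences of Mir1981, Mir3102 and Mir6944 begin with the first base of the intron, so the seed of each starts at the T of the splice site.

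The other 7 were near the limit of detection, with 1 to 6 counts in a library. They were Mir1224 in Vwa5b2, Mir7080 in Cpne7, Mir7018 in Hspg2, Mir7091 in Dnase1l1, Mir1982 in Oaz1, Mir7068 in Cherp and Mir6923 in Myh3. Myh3 encodes the embryonic myosin heavy chain of skeletal muscle, and Mir6923 had 1 count in each library. Among the lower-numbered genes detected, 1 had this arrangement, Mir877, with 45 and 33 counts.

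A looser contact with a splice site was common. In 49 members (32.2%) the 3′ end of the hairpin lay within 5 bases of an intron's 3′ end, in 39 of them without a match at the 5′ end, and 46 of the 49 hairpins ended in AG. The same held for 1 of 261 lower-numbered genes detected (0.383%) and for 176 of the 1509 late-numbered or unnamed genes not detected in both libraries (11.7%). Most of these members had numbers from 6000 to 7999, with 21 of the 28 members in the 6000s and 17 of the 33 in the 7000s. Genes with no Mir symbol were 1022 of all 1661 late-numbered or unnamed genes but only 16 of the members, and 0 of those 16 had this contact. The share among undetected genes was not split by symbol, so it mixes numbered and unnamed genes. Genes are not replicates, so the shares describe the annotated loci and were not tested.

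Among members in exons the most abundant was Mir1306, in a coding exon of Dgcr8, the gene of Drosha's own partner. It lies at chr16:18284239-18284317, minus strand, and had 159 and 156 counts, 64.25 CPM ± 8.91. Mir1249, at chr15:84951526-84951623, minus strand, overlaps a retained-intron transcript of 5031439G07Rik, and had 37 and 83 counts, 25.5 CPM ± 17.0. Mir5113, at chr15:80940039-80940120, lies in the 3′ UTR of Tnrc6b, whose product works with Argonaute in silencing, and had 34 and 23 counts, 11.4 CPM ± 1.41. Gm26117, in a 5′ UTR exon of the adhesion receptor gene Adgrb1, had 19 and 12. Over all 45, 17 overlapped coding sequence, 17 a 5′ UTR, 10 a 3′ UTR, and 8 only noncoding transcripts, with some in more than 1 part. Those in coding sequence held 234 counts in replicate 1 and 230 in replicate 2, most of them from Mir1306.

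Members in introns were many and low, with a median of 1.20 CPM. The highest was Mir1198, at chrX:7807101-7807221 in Gripap1, with 72 and 71 counts, 29.2 CPM ± 4.15. Mir3099, at chr7:6803587-6803670 in Usp29, had 58 and 57 counts, 23.5 CPM ± 3.28. Mir3058, in Nudt4, had 16 and 19. The counts of these 3 were close in both libraries, but replicate 2 had fewer assigned counts, so each was higher there by CPM. In replicates 1 and 2 Mir1198 stood at 26.2 and 32.1 CPM, Mir3099 at 21.1 and 25.8, and Mir3058 at 5.83 and 8.59.

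Several low members lay in genes known for their role in muscle or connective tissue, chosen here after their values were seen. Mir3100, in an intron of Dmpk, the kinase gene of myotonic dystrophy, had 19 counts in replicate 1 and 5 in replicate 2. Mir1963, in an intron of Ryr1, the calcium release channel of skeletal muscle, had 10 and 8. Mir6945, in Pdlim7, which encodes an actin-associated LIM protein, had 17 and 12. Gm38670, in the small heat shock protein gene Hspb6, had 3 and 5, and Gm47302, in an exon of the fibrillar collagen gene Col3a1, had 10 and 3. None of the 5 reached 10 CPM in both libraries. At this depth a gene with no read could still hold 3 counts, 1.09 CPM in replicate 1 and 1.36 CPM in replicate 2, so the lowest of these lie close to what cannot be seen.

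Outside genes on the same strand, 4 members reached 10 CPM in both. Mir5099, at chr12:36816205-36816278, plus strand, had 383 and 302 counts, 138 CPM ± 2.14, and was the second most abundant member. The nearest protein-coding gene, Ispd, was 126702 bases away. Mir6236, at chr9:110281287-110281409, plus strand, had 181 and 173 counts, 72.1 CPM ± 8.67, with Cspg5 18711 bases away. Mir7689, at chr5:36301570-36301628, plus strand, within an intron of Sorcs2 on the other strand, had 145 and 126 counts, 54.9 CPM ± 2.92. Mir7688 had 35 and 28.

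Gm23935 and Gm24270 belong to a set of 57-base loci with no Mir symbol that share stretches of 20 bases or more. Gm23935 lies opposite an intron of Zc3h7a and had 38 counts in replicate 1 and 14 in replicate 2, 10.1 CPM ± 5.32. Gm24270 lies in an intron of Peak1 and had 17 and 11. Each count holds only reads that fitted that 1 copy, so their order against the other copies is uncertain. In all, 11 members (7.24%) shared such a stretch with another microRNA locus, against 78 of the 261 lower-numbered genes detected (29.9%) and 857 of the 1509 late-numbered or unnamed genes not detected in both (56.8%). Of those 857, 814 had no Mir symbol.

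Mir3074-1 and Mir3065 lie opposite a well-known microRNA gene. Mir3074-1, at chr13:63301199-63301283, minus strand, faces Mir24-1 and lies in an intron of Fancc. It had 29 and 23 counts, 10.5 CPM ± 0.119, where Mir24-1 had 97 and 81 on the other strand. Mir3065, at chr11:120014767-120014853, plus strand, faces Mir338 and had 3 and 2 counts, where Mir338 had 967 and 840. In both pairs the late-numbered gene had the fewer counted reads in each library. The Mir3074-1 hairpin shares a stretch of at least 20 bases with Mir3074-2, and reads that fit both loci are in neither count. Whether Mir24-1 lost reads to a copy in the same way was not tested. With either strand counted, Mir3074-1 and Mir3065 both stood at 0, so their values rest on the own-strand column.

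Most members lay in or across another gene. Of them, 134 (88.2%) lay in an intron of a gene on the same strand or overlapped an exon of one. The same held for 188 of the 261 lower-numbered genes detected (72.0%) and for 731 of the 1509 late-numbered or unnamed genes not detected in both (48.4%). Genes with no Mir symbol, 1022 of all 1661 late-numbered or unnamed genes but 16 of the members, were not separated out in these shares. The 134 members were spread over many genes, and few hosts held more than 1 member. Gm49347 and Mir1949 shared AC121821.1 and Gm28285, and Mir7080 and Mir7687 shared Gm20388. Another microRNA gene lay within 10000 bases of 9 members (5.92%) and of 126 lower-numbered genes detected (48.3%).

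The share of genes that were members varied with the number in the name. It was 28 of 82 genes (34.1%) in the 1000s, 25 of 83 (30.1%) in the 3000s, 13 of 51 (25.5%) in the 5000s, 28 of 207 (13.5%) in the 6000s, 33 of 180 (18.3%) in the 7000s and 9 of 32 (28.1%) in the 8000s. None of the 4 in the 2000s was a member. Of the 1022 genes with no Mir symbol 16 (1.57%) were, and 814 of those not detected share a 20-base stretch with another microRNA locus, where reads that fit several loci are not counted. By position, 16 of 31 genes over a small RNA gene (51.6%) and 10 of 22 that fill an intron (45.5%) were members, against 45 of 271 in exons (16.6%), 64 of 547 in introns (11.7%) and 15 of 778 outside genes (1.93%). Shared stretches were unevenly spread over the undetected genes of these classes. They were found in 11 of 15 over a small RNA gene, 2 of 12 that fill an intron, 88 of 226 in exons, 209 of 483 in introns and 546 of 763 outside genes. How far this moved the shares was not tested.

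**Figure D4:**
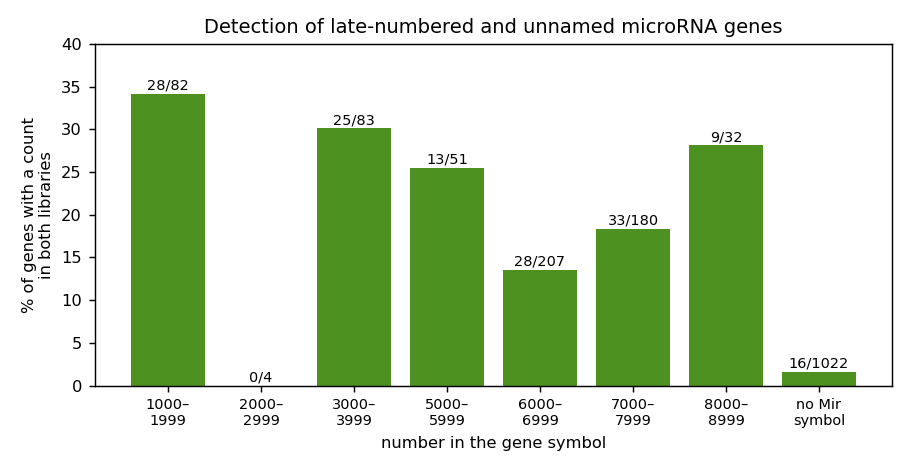
Percentage of late-numbered or unnamed microRNA genes with a count in both libraries, by the number in the symbol, with members over genes in the table above each bar. The bars run from 0 of 4 in the 2000s to 34.1% in the 1000s, and stand at 1.57% for genes with no Mir symbol.

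Many members rest on very few reads. Of the 152, 49 had 3 counts or fewer in both libraries, 50 had a single count in at least 1, and 13 had a single count in both, among them Mir3077, Mir3081 and Mir6983. Just outside the rule, 138 genes had a count in 1 library only, 71 in replicate 1 and 67 in replicate 2, and for 93 of them it was a single count. Gm25109 and Mir1932 had 1 and 0 counts, and Mir1894 0 and 1. The highest of these were Mir6964 with 0 and 5 counts, Mir1943 with 0 and 4, and Mir8109 with 4 and 0. No count was found for 1371 further genes. Which of these zeros come from depth and which from the loss of reads that fit several loci was not tested.

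The median absolute log2 ratio between the libraries was 0.20 for the members at 10 CPM or more in both, and 0.18 for all microRNA genes at that level. A two-sided exact binomial test of each gene's pair of counts, with TMM-scaled library sizes, ran over the 258 genes at 10 CPM or more in both, 20 of them members. It bears on these libraries alone and takes in no error beyond that of counting. At 2-fold and an adjusted p under 0.05, 1 member was called, where 1.16% of all genes tested were. It was Mir1249, at 13.5 CPM in replicate 1 and 37.5 in replicate 2, with a log2 ratio of 1.39 and an adjusted p of 3.75e-07 by that exact binomial test. With no fold threshold 2 of the 20 were called, where 51.9% of all genes tested were. The other was Mir1983, at 72.9 and 116 CPM, with a log2 ratio of 0.65 and an adjusted p of 4.99e-06 by the exact binomial test. The median log2 ratio was 0.08 over the 20 members and −0.01 over all 258 genes. The share called by such a test moves with depth, and the difference between members and all genes was not tested. Over all 629 genes with a count in either library, 3 members were past 2-fold, where 1.59% of genes were, and 4 were called with no fold threshold, where 20.5% were.

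**Figure D5:**
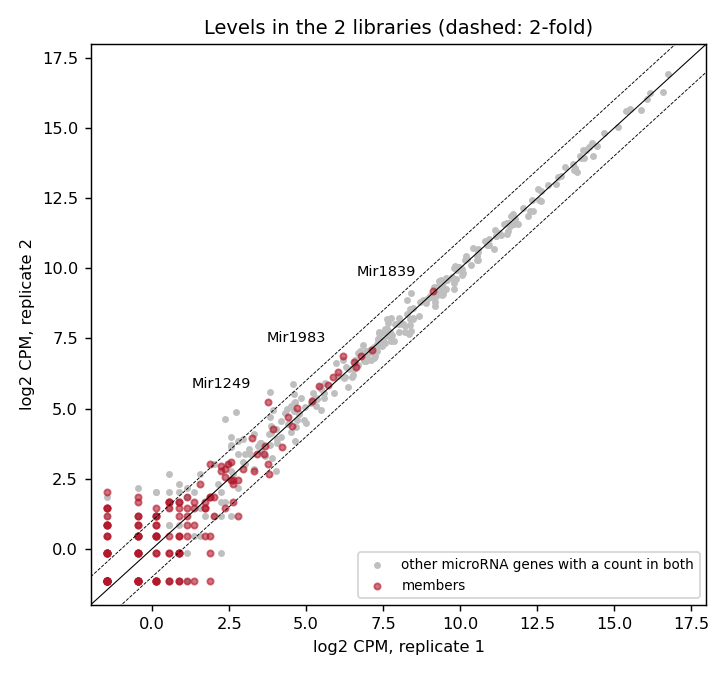
Level of every microRNA gene with a count in both libraries, replicate 2 against replicate 1, in log2 CPM, with members in red, other genes in grey and dashed lines at 2-fold. Mir1249 lies above the 2-fold line, Mir1839 and Mir1983 between the lines, and the members with a few counts spread out at the lower left.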

How the data were processed

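Small RNA of gastrocnemius was sequenced in 2 libraries of 1 group. The authors deposited raw whole-number counts for each microRNA gene in 3 columns (either strand, own strand, opposite strand), on build mm10 with annotation M21 per the file headers and the notes deposited with them. Aligner, counter and trimming are not given in the sources used here. Lines that name no gene (unmapped, several loci, outside genes, ambiguous) stayed out of totals, and assigned reads were 27.3% and 27.0% of each library. Everything else was computed here from the own-strand counts. All 2202 identifiers were found in GENCODE vM21, which gave positions. Small RNA genes came from GENCODE and, for tRNAs and some snoRNAs, the RefSeq table. An exon or intron could be of any transcript, and any overlap with an exon counted as lying in it. A hairpin met an intron end within 5 bases. A shared stretch was 20 bases. Folding used RNAfold 2.7.2. Library sizes used TMM (edgeR 4.0.16, R 4.3.3), log2 ratios are on log2(CPM + 1), and p-values had Benjamini-Hochberg adjustment over all genes tested. The test was checked on simulated counts. Members and lists were chosen with earlier results of these data known. Genes were named by a rule: the 15 highest mean CPM, members past the 2-fold comparison, unnamed genes with 10 counts in both, the 3 highest of each class, and examples at the threshold. Others were chosen after their values were seen. No sequence of chromosome 18 was printed. PCR reads are not independent molecules. Alternatives were another strand column, thresholds, denominators, library sizes and tests.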

Additional observations from a re-analysis of the deposited data

Results flagged for a closer look

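Reads on the strand opposite to a member were found for both members that face another microRNA gene, in a column the comparisons above did not use. Opposite Mir3074-1 there were 97 reads in replicate 1 and 81 in replicate 2. Opposite Mir3065 there were 967 and 840. These equal the own-strand counts of Mir24-1 and Mir338, the genes on the other strand, in each library. Mir5620 and Mir5132, which face no microRNA gene, had a few such reads as well. Opposite Mir5620 there were 3 in replicate 2, beside 2 on its own strand. Opposite Mir5132 there was 1 in replicate 1, beside 5 on its own strand.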

How the results depend on the processing

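With 3 or 10 counts required in both libraries the members numbered 78 or 36 in place of 152. With 10 counts, 28 lay in or across a host on the same strand and 3 filled an intron. The members' share of assigned counts, 0.184%, was 0.239% with either strand counted, where the assigned total fell to 76.4% and 77.0% of that on the own strand, 0.445% without the 10 most abundant genes in the denominator, 0.0499985% of all reads, and 0.171% without members that share a stretch. Over every gene with a count, 3 members passed the 2-fold comparison (Mir1249, Mir6997 and Gm23935) and 4 passed with no fold threshold, and at 100 CPM or more 0 and 1 did, with 3 members tested. The edgeR exact test, with 1 library on each side and a spread taken from the same pair, called 1 with no fold threshold and is no support beyond the count. Fitted at 100 CPM or more, the log2 ratio of Mir5099, which passed no test, went from −0.05 to 0.00299. Required in 1 library only, the members numbered 219 without replicate 1 and 223 without replicate 2, and the share of the same 152 members ran from 0.176% to 0.193%. The CPM of 25 of 25 named members moved with the smaller denominator and of 21 with either strand, where Mir3074-1 and Mir3065 fell to 0. Mir1839's share, the host count by type of host and the intron-filling count within 2 or 10 bases kept to their values. No paired analysis was possible because there was 1 group. At 3 counts or fewer in both libraries, 49 of the 152 cannot be ranked.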

Other observations

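The members outside genes lay mostly on 1 strand of the genome. Of the 15, 14 were on the plus strand (93.3%), and Mir7685 was the exception. Of the other 137 members 71 were (51.8%), as were 393 of the 763 late-numbered or unnamed genes outside genes that were not detected in both libraries (51.5%) and 30 of the 69 lower-numbered genes detected outside genes (43.5%). The pattern was seen after the values were known and was not tested.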
